A study of Rattus rattus with 12 samples.

Results

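The 159 transcripts described here had almost no reads in untreated perigonadal fat of rats and were present after injection of ice slurry. They were selected on the estimated read counts themselves, with at most 3 in each of the 3 control libraries and at least 20 in all 3 libraries of at least one of day 1, day 3 and day 14 after slurry. They are 159 of the 46726 transcripts in the tables. Because these counts chose them, the rise over the control is given as a description and no test is used to support it. The study asked how gene expression in visceral fat changes after cold injury by slurry. Male Sprague-Dawley rats, 8 weeks old and 200 g in weight when bought, were then kept on high-fat chow (60 kcal% fat) for 9 weeks until treatment and on through the study. The slurry (10 ml) went into the perigonadal fat of 1 side, which was reached by opening the abdomen. RNA was sequenced in 12 libraries, 3 of untreated control fat and 3 of slurry treated fat from each of day 1, day 3 and day 14. In the study's methods the control was fat of the side left without injection. Whether the control libraries came from the same animals as the treated ones is not given in the sources used here.

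Ice slurry cools fat until the lipid inside adipocytes crystallizes, which kills these cells and is followed by inflammation, clearance of dead cells and wound healing. A gene is usually transcribed into several isoforms that share exons, and cells can switch from one isoform to another without changing the output of the gene. Short reads from a shared exon do not tell which isoform they came from, so a quantifier such as Salmon has to divide them between the candidates. Transcripts are given by Ensembl identifier, since the tables do not pair them with gene names. For the same reason the tissue could not be checked against adipocyte markers, and it was not possible to say whether a gained transcript belongs to a gene that was already active in control fat.

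Each library held between 20466915 and 28802360 estimated counts, the reads that Salmon assigned to transcripts. In control libraries 1, 2 and 3, an estimated count of 3 corresponded to 0.132, 0.113 and 0.116 counts per 1000000 assigned counts (CPM). By counting error alone, an estimated count of 0 in a control library therefore means a level under about these values, and not absence. It sets no limit on shared reads that Salmon assigned to another isoform. The folds given below as at least have the same restriction. Abundance is given in transcripts per 1000000 (TPM), which corrects for transcript length and sums to 1000000 in each library. The estimated count was 0 in all 3 control libraries for 147 of the 159 transcripts. The other 12 had between 1 and 3 estimated counts in at least one control library, so for these the description as transcripts without control reads is not exact.

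Of the 159 transcripts, 27 were gained at day 1, 70 at day 3 and 90 at day 14. Gained here means at least 20 estimated counts in all 3 libraries of that day. In whole tissue, fewer cells of a type and less RNA per cell cannot be told apart, and likewise more cells and more RNA per cell. Most were gained on a single day, 16 at day 1 only, 50 at day 3 only and 69 at day 14 only. A further 3 were gained at days 1 and 3, 4 at days 1 and 14, 13 at days 3 and 14, and 4 on all 3 days. Thus 135 of 159 met the limit on 1 day and 24 on more than 1. The transcripts named for each pattern of days are the 2 with the highest mean TPM on their days of gain, and they had 0 counts in all control libraries unless given otherwise.

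**Figure D1:**
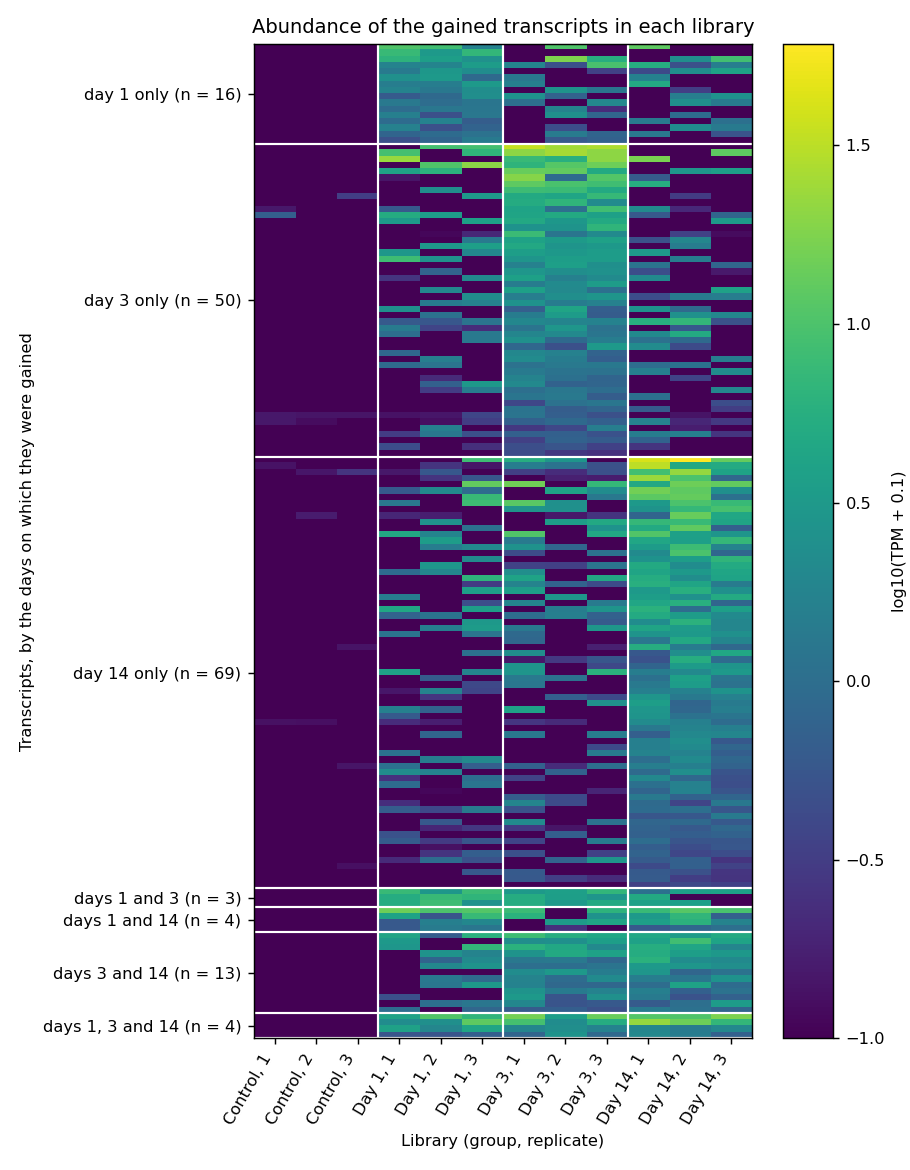
Abundance of the 159 gained transcripts in each library, as log10(TPM + 0.1), with transcripts in order of the days on which they were gained and libraries in columns. Control columns are near the lowest colour throughout because they chose the transcripts, and many transcripts gained on 1 day are also present in 1 or 2 libraries of another day.

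The 4 transcripts gained on all 3 days had 0 counts in every control library. ENSRNOT00000105301.1 had 388, 876 and 482 estimated counts at day 1, 1359, 271 and 1311 at day 3, and 759, 953 and 1687 at day 14. Its abundance was 6.99 ± 3.32 TPM (SD, n = 3) at day 1, 11.0 ± 6.64 TPM at day 3 and 12.7 ± 3.73 TPM at day 14. The ranges of the 3 days overlapped, with the lowest treated value in replicate 2 of day 3. Taking 3 counts in each control library as the floor, its mean CPM over the 3 libraries was at least 213-fold higher than in control at day 1. The mean was at least 303-fold higher at day 3 and at least 377-fold at day 14, and single libraries lay lower. ENSRNOT00000105748.1 had 42.4, 38.8 and 178 counts at day 1, 155, 33.6 and 95.7 at day 3, and 306, 269 and 134 at day 14. Its mean was 5.58 ± 5.79 TPM at day 1, 5.45 ± 3.46 TPM at day 3 and 14.5 ± 7.58 TPM at day 14 (SD, n = 3). The day 14 mean was the highest, but replicate 3 of day 14 lay below replicate 3 of day 1.

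The remaining pair gained on all 3 days is named because there were only 4, and was chosen after its values were seen. ENSRNOT00000107207.1 had 656, 264 and 545 counts at day 1, 270, 318 and 265 at day 3, and 218, 215 and 329 at day 14. Its TPM varied little between libraries at day 3 (1.90 ± 0.357, SD, n = 3) and day 14 (1.66 ± 0.299), and more at day 1 (3.28 ± 1.30). ENSRNOT00000100996.1 was the least abundant of the 4 over the 9 treated libraries, at 0.485 ± 0.0905 TPM at day 1, 1.35 ± 1.05 TPM at day 3 and 1.29 ± 0.633 TPM at day 14. Its day 1 counts of 33.3, 26.9 and 32.8 were close to the limit of 20, and with a limit of 50 it would have counted as gained on no day, since its lowest count was 46.3 at day 3 and 47.0 at day 14.

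Among the 16 transcripts gained at day 1 only, the highest mean TPM belonged to ENSRNOT00000113361.1, with 1159, 804 and 137 counts at day 1 and 6.77 ± 4.53 TPM (SD, n = 3). It also had 0, 927 and 0 counts at day 3 and 995, 0 and 0 at day 14. Hence the name of its pattern rests on the limit in all 3 libraries, and single libraries of the later days held as much of it as day 1. ENSRNOT00000111838.1 had 746, 266 and 506 counts at day 1, which is 7.40, 3.12 and 6.83 TPM, and 0 in all 3 libraries of day 3 and of day 14. It was the only one of the 16 without reads in all 6 later libraries. In mean CPM it was at least 181-fold higher at day 1 than in control.

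Of the 3 transcripts gained at days 1 and 3, ENSRNOT00000115823.1 had 158, 51.9 and 122 counts at day 1, 57.8, 60.9 and 135 at day 3, and 14.5, 68.5 and 77.9 at day 14. It missed the limit at day 14 in 1 library, and its mean went from 6.06 ± 2.74 TPM at day 1 to 4.51 ± 1.97 at day 3 and 2.72 ± 1.52 at day 14 (SD, n = 3), with ranges that overlapped. ENSRNOT00000111808.1 had 149, 182 and 138 counts at day 1, 130, 82.4 and 75.8 at day 3, and 97.8, 0 and 0 at day 14. Its mean was 6.35 ± 1.14 TPM at day 1 and 3.81 ± 1.21 TPM at day 3, and at day 14 replicate 1 alone held it, at 4.75 TPM.

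The 4 transcripts gained at days 1 and 14 were all mixed at day 3, which here means neither gained nor at most 3 counts in each library. In 3 of them a day 3 library was at 0 beside libraries over the limit, and ENSRNOT00000102308.1 had 0, 12.9 and 0 counts. ENSRNOT00000114530.1 had 616, 355 and 331 counts at day 1, 287, 0 and 247 at day 3, and 224, 433 and 389 at day 14. Its abundance was 11.9 ± 2.52 TPM at day 1 and 9.47 ± 1.82 TPM at day 14 (SD, n = 3), with ranges that overlapped. ENSRNOT00000019025.9 had 457, 41.6 and 622 counts at day 1, 584, 0 and 268 at day 3, and 246, 713 and 67.4 at day 14. For both, replicate 2 of day 3 was at 0 while the other day 3 libraries held over 200 counts, so the gap at day 3 came from 1 library.

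Among the 50 transcripts gained at day 3 only, ENSRNOT00000114752.1 was the most abundant. It had 0, 269 and 235 counts at day 1, 1081, 723 and 943 at day 3, and 0 in all 3 libraries of day 14. At day 3 this was 34.4, 25.1 and 27.8 TPM, all above the 8.89 and 8.86 TPM of the day 1 libraries that held it. Its mean CPM at day 3 was at least 294-fold higher than in control. ENSRNOT00000052379.5 is only 240 bases long, so that 23.2, 27.3 and 26.1 counts at day 3 amounted to 22.1 ± 2.95 TPM (SD, n = 3). It had 12.6, 0 and 6.60 counts at day 1 and 0, 0 and 16.5 at day 14. Its high TPM thus rests on at most 27.3 estimated counts per library, and its mean CPM was at least 8.34-fold higher at day 3 than in control.

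The 13 transcripts gained at days 3 and 14 were led by ENSRNOT00000102907.1, with 288, 171 and 164 counts at day 3 and 131, 122 and 194 at day 14. Its abundance was 6.01 ± 2.03 TPM at day 3 and 4.25 ± 0.845 TPM at day 14 (SD, n = 3). At day 1 it had 165, 18.4 and 168 counts, and so missed the limit in 1 library by less than 2 counts. ENSRNOT00000119089.1 had 41.9, 0 and 0 counts at day 1, 25.5, 24.7 and 43.5 at day 3, and 36.0, 104 and 53.3 at day 14. Its mean TPM was 2.67 ± 0.711 at day 3 and 5.40 ± 2.57 at day 14, and every day 14 library lay above every day 3 library.

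Among the 69 transcripts gained at day 14 only, ENSRNOT00000094038.1 was the most abundant of all 159. Its counts were 1520, 2903 and 673 at day 14, 236, 113 and 0 at day 3, and 0, 0 and 314 at day 1. At day 14 it had 41.6, 60.7 and 13.1 TPM, a mean of 38.4 ± 23.9 (SD, n = 3). Its mean CPM there was at least 581-fold higher than in control. The lowest day 14 library, at 13.1 TPM, was still above the 8.24 TPM of replicate 3 of day 1. ENSRNOT00000025170.6 had 1, 0 and 0 counts in control, 0, 4 and 1 at day 1, 37, 25 and 11 at day 3, and 674, 130 and 147 at day 14. Its mean of 13.8 ± 15.6 TPM at day 14 was carried by replicate 1, at 31.8 TPM, against 4.68 and 4.91 TPM in the other libraries. No fold over control is given for it because a control library held 1 read.

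**Figure D2:**
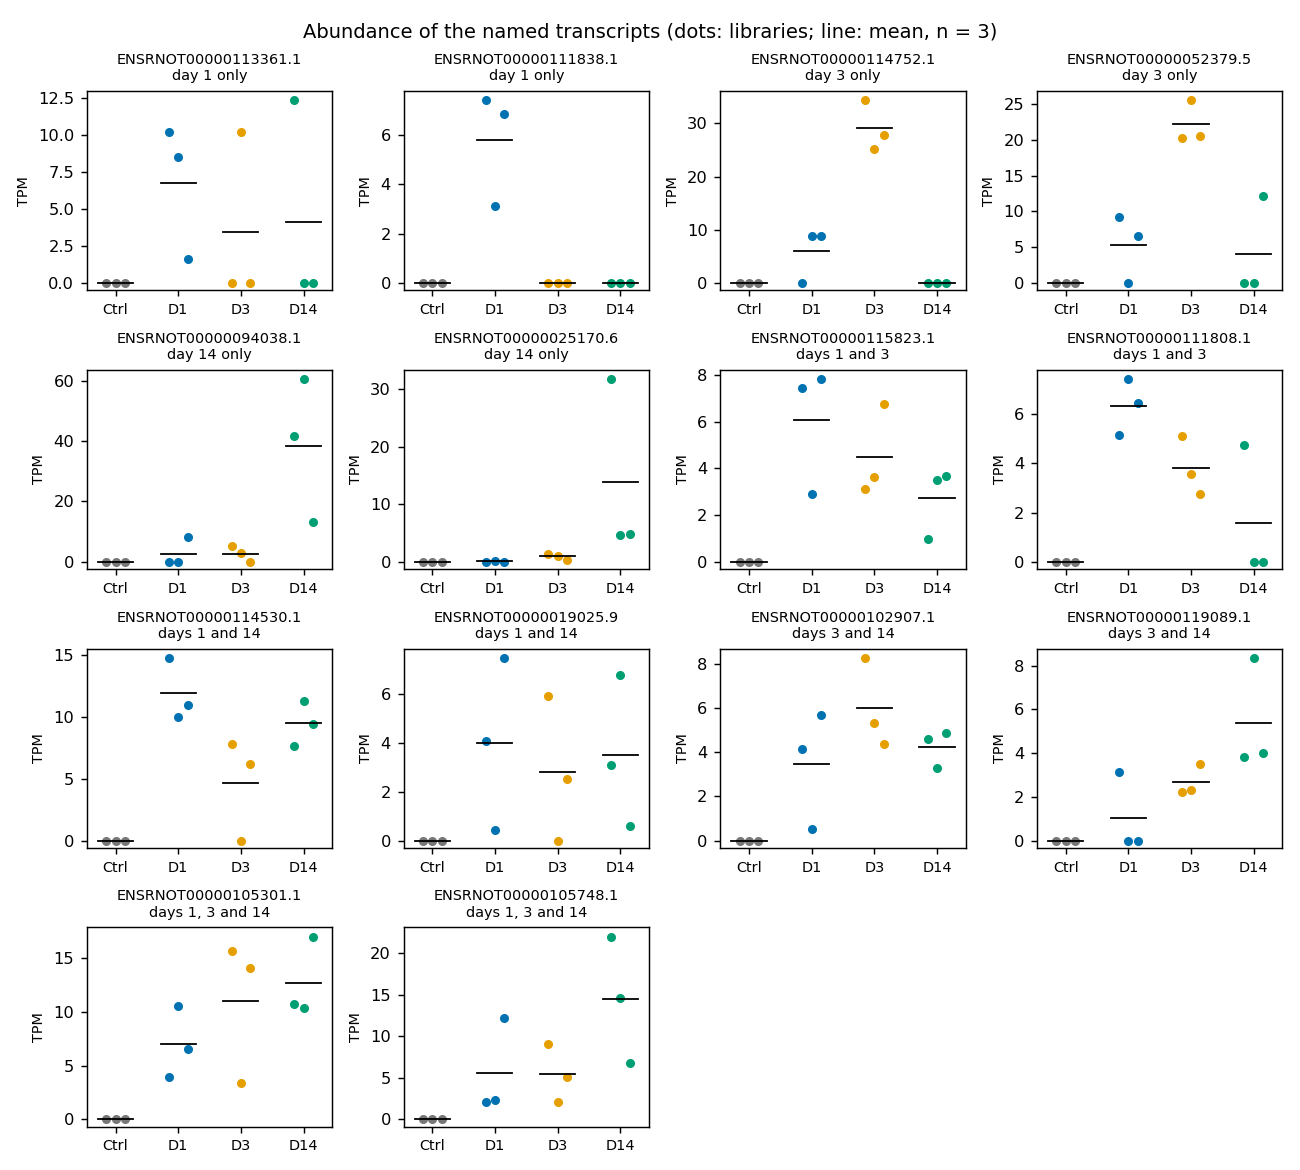
TPM of the 2 most abundant transcripts of each pattern of days, with 1 dot per library and a line at the mean of 3 libraries, for control (Ctrl) and days 1, 3 and 14 (D1, D3, D14). Several transcripts gained on 1 day, such as ENSRNOT00000113361.1, have a library of another day at the same height.

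Of the 27 transcripts gained at day 1, 7 met the limit again at day 3, 18 were mixed and 2 were without reads, here at most 3 counts in each library. At day 14, 8 of the 27 met it, 16 were mixed and 3 were without reads. Of the 70 gained at day 3, 17 met the limit at day 14, 41 were mixed and 12 were without reads, and 54 of the 70 had at least 1 library of day 14 with 20 counts or more. Full persistence from the day of gain was thus seen in a minority, and full loss was rarer still.

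Looking back from the later days, 63 of the 90 transcripts gained at day 14 were mixed at day 1, 8 were gained and 19 were without reads. At day 3, 61 of the 90 were mixed, 17 were gained and 12 were without reads. For the transcripts gained on both days of a pair, mean TPM moved in both directions. Between day 3 and day 14, it was higher at day 14 in 10 of 17 and lower in 7, with a median ratio of 1.10 and a range from 0.397 to 3.18. From day 1 to day 3, it was higher in 2 of 7 and lower in 5, with a median ratio of 0.821 and a range from 0.578 to 2.79. From day 1 to day 14 it was higher in 4 of 8 and lower in 4, with a median ratio of 1.34 and a range from 0.507 to 2.97.

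A mixed day was the rule rather than the exception, with 142 of 159 transcripts mixed on at least 1 day. The 17 without a mixed day were the 4 gained on all days, 2 gained at days 3 and 14, 1 gained at day 1 only, 4 at day 3 only and 6 at day 14 only. The most frequent course, in 46 transcripts, was mixed at day 1, mixed at day 3 and gained at day 14. The next, in 30, was mixed at day 1, gained at day 3 and mixed at day 14. At least 20 counts were reached in exactly 3 of the 9 treated libraries by 22 transcripts, in 4 by 25, in 5 by 45, in 6 by 28, in 7 by 23, in 8 by 12 and in all 9 by 4.

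On the days when a transcript was not gained, its libraries tended to hold either no read or many. Over 870 such values, 474 (54.5%) were exactly 0 and 291 (33.4%) were at least 20, of which 116 were at least 100. Values above 3 and below 20 made up 9.77%. At 0 in at least 1 treated library were 150 of the 159 transcripts, and 9 were above 0 in all 9.

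Counted per library, 61, 63 and 75 of the 159 transcripts had at least 20 counts at day 1, 108, 98 and 105 at day 3, and 120, 113 and 109 at day 14. Their summed abundance was 190, 164 and 257 TPM at day 1, 401, 295 and 348 TPM at day 3, and 456, 452 and 284 TPM at day 14. In the control libraries it was 0.821, 0.206 and 0.543 TPM. The sums at day 3 and day 14 overlapped, at 348 ± 52.8 and 397 ± 98.4 TPM (SD, n = 3), while the 3 day 1 sums, at 204 ± 48.1 TPM, lay below the 6 of the later days. These sums also follow how many transcripts the rule took in on each day. The 159 transcripts together made up between 0.0164% and 0.0456% of the TPM of a treated library.

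**Figure D3:**
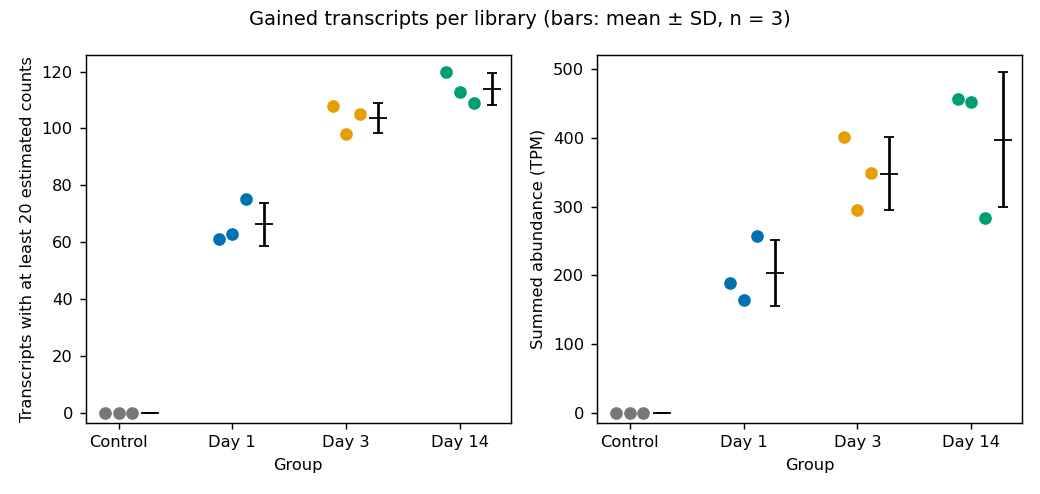
Number of the 159 transcripts with at least 20 estimated counts (left) and their summed TPM (right) in each library, by group. Dots are libraries and bars show mean ± SD of 3 libraries, and the control values are low because they chose the transcripts.

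Most gained transcripts were of low abundance. Their mean TPM over the libraries of the days on which they were gained had a median of 2.10 and ranged from 0.224 to 38.4, with 126 at 1 TPM or more, 33 below 1 and 15 at 10 or more. For comparison, the 16727 transcripts with at least 20 counts in all 12 libraries had a median of 13.6 TPM. The median was 1.45 TPM for those gained at day 1 only, 1.99 at day 3 only, 2.15 at day 14 only and 5.40 for the 4 gained on all days. The 10 most abundant held 35.8% of the summed TPM at day 1, 37.3% at day 3 and 35.5% at day 14.

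Even on the day of gain, the libraries of a group differed more for these transcripts than for others. The ratio of the highest to the lowest TPM of the 3 libraries had a median of 2.69 at day 1, 2.19 at day 3 and 3.00 at day 14. Among the 16727 transcripts with at least 20 counts in every library, which are more abundant, it was 1.63, 1.33 and 1.5. The 3 libraries lay within 2-fold of each other for 7 of 27 transcripts gained at day 1, 32 of 70 at day 3 and 20 of 90 at day 14. Of the 16727, the share within 2-fold was 69.4%, 87.4% and 76.2%.

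A library that takes no part in the choice shows how far the choice carries over to another sample of the same group. When transcripts gained at day 1 were chosen on 2 day 1 libraries, the limit of 20 was met in the library left out by 30.7% of 88 without replicate 1, 30.3% of 89 without replicate 2 and 42.2% of 64 without replicate 3. At day 3 it was 60.3% of 116, 41.7% of 168 and 50% of 140. At day 14 it was 50.3% of 179, 64.7% of 139 and 53.3% of 169. Of all transcripts with at least 20 counts in the other libraries of the group, which include far more abundant ones, between 94.1% and 96.5% met the limit in the library left out. Of the transcripts chosen on 2 libraries of day 3 or day 14, about as many thus failed in the library left out as met the limit. At day 1 more failed.

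The same held for the absence of reads in control. With control replicate 1 left out of the choice, 58.9% of 270 chosen transcripts had at most 3 counts in it, with replicate 2 left out 48.2% of 330, and with replicate 3 left out 40.9% of 389. Of the 389 chosen without replicate 3, 192 had at least 20 counts in that library. Among all transcripts with at most 3 counts in the other control libraries, the share was 93.6%, 91.2% and 90.7%. That set was not required to have reads in any library, so its high share is partly built in.

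**Figure D4:**
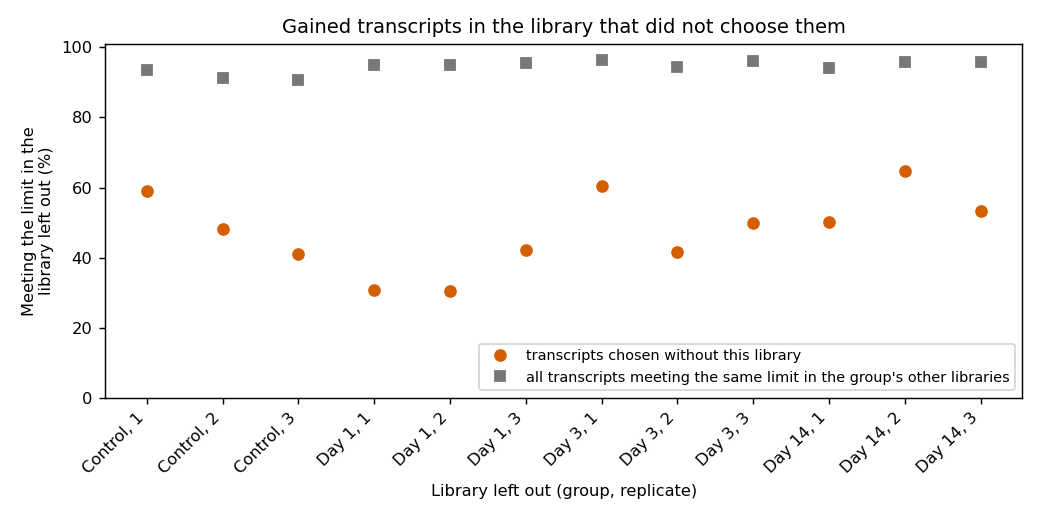
Percent of transcripts that met the limit (at most 3 counts for control, at least 20 for a treated day) in the library left out, when gained transcripts were chosen without it (circles), and for all transcripts that met the same limit in the other libraries of the group (squares). Circles lie between 30.3% and 64.7% and squares between 90.7% and 96.5%. For control, the squares include transcripts that were not required to have reads in any library.

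The rule was also applied between each pair of groups in both directions. Against the 27, 70 and 90 transcripts gained over control, 37 with at least 20 counts in all control libraries had at most 3 in each day 1 library, 48 in each day 3 library and 58 in each day 14 library. Between treated days, the numbers ran from 28, low at day 3 and present at day 1, to 69, low at day 1 and present at day 14. Gains over control thus outnumbered losses on days 3 and 14 but not on day 1. Over all transcripts, 19156 had at least 20 counts in every control library. For days 1, 3 and 14 this number was 19132, 19956 and 20075, so overall detection differed in the same direction. The gained transcripts were 0.141%, 0.351% and 0.448% of those present on these days. The lost ones were 0.193%, 0.251% and 0.303% of those present in control. The part of overall detection in this balance was not tested, and no test of these numbers was made. In all, 117 transcripts were lost by the reverse rule on at least one day.

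The gained transcripts were long and often had fractional counts. Neither was a term of the rule, though a minimum on counts favours long transcripts. Their median length was 3720 bases, with a range from 240 to 14175, against 2283 bases for all 46726 transcripts and 2625 for those with at least 20 counts in all 12 libraries. The 117 lost transcripts, with a median of 3405 bases, were also long. At the same abundance a long transcript collects more reads, and the part of this in the lengths was not tested. Identifiers in their initial version, number 1, made up 66.7% of the gained and 61.5% of the lost transcripts, against 45.5% of all and 32.6% of those with at least 20 counts in all 12 libraries.

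An estimated count that is not a whole number shows that Salmon divided reads between that transcript and at least one other. Of 852 values of at least 20 among the gained transcripts, 92.4% were not whole (tolerance 0.001), against 81.6% of such values over all transcripts and 89.9% for the lost ones. In every library of the days of gain, 139 of the 159 had a fractional count, 8 had a whole count and 12 had both kinds. For most of them the reads were therefore shared with other transcripts, and a gain may be a change of isoform, or of the division of reads, and not of the gene. Which of these it was could not be told without the gene of each transcript and was not tested.

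Some gained transcripts had large gaps between libraries of the same group. Of the gained transcripts with at least 100 counts in a day 1 library, 29 of 52 (55.8%) had at most 3 in another day 1 library. At day 3 this was 29 of 76 (38.2%), and at day 14 it was 14 of 83 (16.9%). Over all transcripts with at least 100 counts in a library of the group, the share was 7.67%, 6.65% and 6.84%. A transcript gained on a day cannot have such a gap there, so the shares depend on how many were gained on each day, and nothing is read from their order or from the difference to all transcripts. The part that division of reads or differences between animals have in these gaps was not tested.

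The 8 transcripts with whole counts in every library of the days of gain are those for which sharing of reads was not seen there, and the 5 described were chosen from them after their values were seen. ENSRNOT00000009334.7 had 0, 1 and 3 counts in control, 1, 8 and 0 at day 1, 4, 2 and 7 at day 3, and 121, 401 and 76 at day 14. Its abundance was then 11.5 ± 9.33 TPM (SD, n = 3). ENSRNOT00000100214.1, of 13587 bases, had 80, 111 and 316 counts at day 14 and 0 in the other 9 libraries. In both, all day 14 libraries lay above all other libraries.

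ENSRNOT00000003296.6 had 102, 34 and 21 counts at day 14, 1 in a control library, 2 in a day 3 library and 0 in the rest. ENSRNOT00000006341.8 had 58, 28 and 42 counts at day 3, 24, 0 and 14 at day 14, and 0 in control and at day 1. ENSRNOT00000112730.1 had 37, 56 and 88 counts at day 1, 0, 38 and 60.6 at day 3, and 0 in control and at day 14. Of the 8, 1 was gained at day 1 only, 2 at day 3 only and 5 at day 14 only.

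The 12 transcripts with 1 to 3 counts in a control library differed from the 147 without any in the features above. Their median length was 1963 bases against 4026, and 3 of 12 against 103 of 147 had an identifier in its initial version. Whole counts in every library of the days of gain were found in 4 of 12 and in 4 of 147. Of the values on days when they were not gained, 25% lay above 3 and below 20, against 8.40%. None of the 12 was gained at day 1, 5 were gained at day 3 and 7 at day 14. With 12 transcripts, chosen by their control counts, this is a description.

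Near the limits, small changes in counts moved transcripts in or out. For 27 of the 159, the lowest count on the best day was at least 20 and under 25, while another 27 transcripts stayed out with a lowest count between 15 and 19.6. On the control side, 12 were inside with a highest control count between 1 and 3, and 35 were outside with one between 3.47 and 6.

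In edgeR's quasi-likelihood test with 12 libraries in 1 fit, a transcript was called when it changed by over 2-fold with a Benjamini-Hochberg adjusted p under 0.05. All 159 passed the filter on low counts, which 3 libraries with 20 counts nearly ensure, and 28016 transcripts were tested. Called higher than control were 1 of the 159 at day 1, 2 at day 3 and 11 at day 14. Of all tested transcripts, 0.00357%, 0.0107% and 0.389% were called higher on these days. Nothing is read from these numbers, since the same counts chose the transcripts. An unadjusted p under 0.05 was reached by 90, 118 and 124 of the 159, and by 7.77%, 16.7% and 17.0% of all tested transcripts. The call at day 1 was ENSRNOT00000107207.1, and those at day 3 were the same transcript and ENSRNOT00000105301.1. DESeq2 gave 152 of the 159 an adjusted p and called 66, 103 and 108 of them higher, so that the number depended on the tool. Of all transcripts it tested, it called 0.768%, 3.12% and 4.02% higher, and nothing is read from these numbers either.

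The treated days were compared directly by the same edgeR test. The minimum of 20 on the day of gain was part of the choice, so a low value on another day is partly built in. Between day 3 and day 1, 0 of the 159 were called, with 0.00357% of all tested transcripts called, while 35 had an unadjusted p under 0.05, as had 9.27% of all. DESeq2 called 21 of 152 (13.8%) there, 16 higher and 5 lower at day 3, against 2.48% of all it tested. Between day 14 and day 1, 4 of the 159 (2.52%) were called, 3 higher and 1 lower at day 14, against 1.02% of all tested transcripts. Without day 1 replicate 1 the number was 3, 1 higher and 2 lower, so that the balance turned with 1 library. It was 8 without day 1 replicate 2 (6 higher, 2 lower) and 3 without day 14 replicate 1 (2 higher, 1 lower). Without day 1 replicate 3, day 14 replicate 2 or day 14 replicate 3 it was 1, which was higher. Over all transcripts, 38 of 29342 were called without day 1 replicate 1 and 1124 of 29392 without day 1 replicate 2. That number was 113 of 29258 without day 14 replicate 1 and 41 of 29322 without day 1 replicate 3. Without day 14 replicate 2 and without day 14 replicate 3 it was 33 of 29205 and 96 of 29200. Between day 14 and day 3, 2 of the 159 (1.26%) were called, both lower at day 14, against 1.98% of all. Without day 14 replicate 2, day 14 replicate 3, day 3 replicate 1 or day 3 replicate 3 the number was 0. It was 1 without day 14 replicate 1, lower at day 14, and 1 without day 3 replicate 2, which was higher at day 14, with neither of the lower calls kept. Over all transcripts, 488 of 29258 were called without day 14 replicate 1 and 303 of 29376 without day 3 replicate 2. Without day 14 replicate 2 and without day 14 replicate 3 that number was 93 of 29205 and 249 of 29200. Without day 3 replicate 1 and without day 3 replicate 3 it was 69 of 29266 and 66 of 29315. DESeq2 called 31 of 152 (20.4%) between days 14 and 1, 25 higher and 6 lower at day 14, against 6.29% of all it tested. Between days 14 and 3 it called 25 of 152 (16.4%), against 7.82% of all, 16 higher and 9 lower at day 14. The balance of directions between days 14 and 3 thus differed between the tools. With a replicate block, edgeR called 0 of the 159 in each comparison between days. Of all 28016 transcripts, it called 1 between days 3 and 1, 64 between days 14 and 1 and 346 between days 14 and 3. When edgeR was fitted to the 6 libraries of a comparison alone, it called 0 of 125 between days 14 and 1, and 0% of all. An unadjusted p under 0.05 was reached there by 37 of the 125 (29.6%) and by 12.6% of all. Between days 14 and 3 it called 20 of 151 (13.2%) in this way, against 2.83% of all, 12 of them higher and 8 of them lower at the later day.

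The 2 lower at day 14 than at day 3 were without reads at day 1 and day 14. ENSRNOT00000099146.1 had 266, 317 and 121 counts at day 3 and 0 in the other 9 libraries, and ENSRNOT00000118601.1 had 144, 137 and 395 counts at day 3 and 0 elsewhere. In mean CPM, the fall from day 3 to day 14 was at least 76.9-fold for the former and at least 68.3-fold for the latter, against 3 counts in each day 14 library. Their adjusted p was 0.0409 and 0.0414 (edgeR), and each call was lost in 7 of 11 alternatives.

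Of the transcripts higher at day 14 than at day 1, ENSRNOT00000112581.1 had 327, 147 and 219 counts at day 3, 151, 82.0 and 148 at day 14, and 0 in control and at day 1. ENSRNOT00000119744.1 had 208, 270 and 143 counts at day 3, 224, 75.1 and 115 at day 14, and 0 in control and at day 1. Both were at 0 at day 1 and present in all libraries of days 3 and 14. Between day 3 and day 1, edgeR called neither. Their mean CPM at day 14 was at least 40.4-fold and at least 45.3-fold above the floor of the day 1 libraries. For day 14 against day 1, their adjusted p was 0.0187 and 0.0263 (edgeR), and the call was lost in 2 and in 6 of 11 alternatives. The third was ENSRNOT00000025170.6 (adjusted p = 0.0434, edgeR), with the call lost in 7 of 11 alternatives. The transcript lower at day 14 was ENSRNOT00000111838.1 (adjusted p = 0.0348, edgeR), at least 176-fold in mean CPM, with the call lost in 8 of 11. The other 4 transcripts were outside the rule for naming and are given because so few were called between days.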

How the data were processed

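RNA was extracted from perigonadal fat and sequenced after polyA selection with a directional kit. The authors checked reads with FastQC 0.11.3 and quantified them with Salmon, whose version is not given in the sources used here. The study's methods name Ensembl transcripts of mRatBN7.2, whereas the submitters' processing notes list rn6. For each library the authors deposited an estimated count per transcript, not normalized. The TPM values deposited by the authors take length and depth into account. They served to describe abundance, to pick the named transcripts and to set the alternative limits on TPM, and not for the main choice or the tests. The transcript lengths are as deposited, and the other deposited values, the effective lengths, were not used. The tables do not pair identifiers with genes. The gene table at hand held 32100 Rattus rattus genes from RefSeq, and 0 of the 46726 Ensembl transcript identifiers were found in it. A gene table need not hold transcript identifiers, so the 0 is no finding about the transcripts, and no gene list or marker was examined.

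Members and lists were chosen with earlier results of these data known. The estimated counts chose the transcripts by the limits of 3 and 20. The named transcripts were, for each of the 7 patterns of days, the 2 with the highest mean TPM over the libraries of the days of gain. A fold against libraries at 0 takes 3 counts in each of these libraries as the floor, on counts per 1000000 of the library total. It divides the mean of the 3 libraries with reads by the mean floor, so it is no bound for a single library. It covers counting error only, and not the division of reads between transcripts. Estimated counts were rounded to integers and tested with edgeR 4.0.16 and limma 3.58.1 in R 4.3.3 (filterByExpr, TMM, robust glmQLFit, glmQLFTest), with the 12 libraries in 1 fit and Benjamini-Hochberg adjustment over all transcripts tested. The script was tested on simulated data. Alternatives were DESeq2 1.42.0, no filter beyond 1 count in total, upper-quartile normalization, a replicate block, only the compared groups in the fit, other limits for the choice and leaving out each library.

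Libraries were grouped by their labels, 3 per group. The study's methods state biological replicates. Duplicates were looked for by a chi-square of the counts of each pair within a group, which was 40.5 to 199 times its degrees of freedom, so no pair was within sampling noise and each library was counted once. With 3 libraries against 3, an exact permutation test cannot give a p below 0.1.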

Additional observations from a re-analysis of the deposited data

Results flagged for a closer look

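For 6 of the gained transcripts, the levels after slurry differed between 2 of the days in a direct test of the difference (edgeR's quasi-likelihood test, Benjamini-Hochberg adjusted, n = 3 libraries per day). In 5 of them a day was at 0 in all 3 libraries, and the fitted log2 fold change then depends on the prior count and is no bound. The rule asked for 20 counts in all libraries of a day, and the same counts are tested here, so these differences are partly built in and each p is a description. With a replicate block in the fit, 0 of the 159 were called in each comparison between days.

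At day 14 against day 1, the fitted log2 fold change was 10.03 for ENSRNOT00000112581.1 (adjusted p = 0.0187) and 10.19 for ENSRNOT00000119744.1 (adjusted p = 0.0263), both at 0 at day 1. It was 7.50 for ENSRNOT00000025170.6 (adjusted p = 0.0434), with 0, 4 and 1 counts at day 1. It was -11.98 for ENSRNOT00000111838.1 (adjusted p = 0.0348), at 0 at day 14. At day 14 against day 3 it was -10.84 for ENSRNOT00000099146.1 (adjusted p = 0.0409) and -10.71 for ENSRNOT00000118601.1 (adjusted p = 0.0414), both at 0 at day 14.

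Over the 11 alternatives, the adjusted p ranged from 1.3e-10 to 0.143 for ENSRNOT00000112581.1, from 1.4e-09 to 0.154 for ENSRNOT00000119744.1, from 4.8e-08 to 0.176 for ENSRNOT00000025170.6 and from 0.0268 to 0.167 for ENSRNOT00000111838.1. It ranged from 0.00014 to 0.192 for ENSRNOT00000099146.1 and from 0.00033 to 0.202 for ENSRNOT00000118601.1. The direction was the same in all of them. The cause of the differences between days was not tested.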

How the results depend on the processing

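The number of gained transcripts followed the limits. Against 159 in all and 27, 70 and 90 on days 1, 3 and 14, a control ceiling of 10 gave 247 in all and 148 at day 14, and a minimum of 10 gave 50 at day 1 and 136 at day 14. A minimum of 50 gave 84 in all and 14, 34 and 51 on the 3 days. Limits on TPM (at most 0.1 in control and at least 1 on a day) gave 98 in all, 42 at day 3 and 52 at day 14, and 78 of the 98 were among the 159. The minimum in 2 of 3 libraries, run for the total only, gave 573. A ceiling of 0 and counts scaled to the mean library total kept each number within 1.5 times. Leaving out a library from the choice can only add transcripts, and gave 189 to 389 in all, 60 to 89 at day 1, 116 to 190 at day 3 and 139 to 237 at day 14, with the highest total without control replicate 3. Each library left out moved the number of its own day, or of all days for a control library, by more than 1.5 times.

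The number of the 159 called by edgeR (1, 2 and 11 for days 1, 3 and 14 against control, 0 between days 3 and 1, 4 between days 14 and 1, and 2 between days 14 and 3) depended on the tool and on single libraries. DESeq2 gave 66, 103, 108, 21, 31 and 25 of 152. Fitted to the 2 compared groups alone, edgeR gave 0, 55, 0, 0, 0 and 20, where fewer of the 159 passed the filter (34, 74, 95, 119, 125 and 151), and 34, 95, 24 and 37 had an unadjusted p under 0.05 in the 4 comparisons with 0. Of all transcripts, 5.07%, 16.7%, 8.66% and 12.6% had such a p there. Over all transcripts, this fit called 903 of 25025 (308 higher) at day 3 against control. It called 722 of 25470 between days 14 and 3, and 0 in the other comparisons. Upper-quartile normalization and no filter gave the same 6 numbers as the reported test. The cause was not tested.

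With 1 library left out in turn, the numbers called ranged from 1 to 6 at day 1 (4 without day 1 replicate 1 and 6 without day 1 replicate 2), from 1 to 3 at day 3 (1 without control replicate 1, control replicate 2, day 3 replicate 1 or day 3 replicate 3, and 3 without day 3 replicate 2) and from 2 to 12 at day 14. At day 14 there were 4, 4 and 6 without control replicates 1, 2 and 3 in turn. Without day 14 replicates 1, 2 and 3 there were 3, 2 and 12. Over all transcripts, 18 of 29398, 14 of 29320 and 54 of 29314 were called higher at day 14 without control replicates 1, 2 and 3 in turn. Without day 14 replicates 1, 2 and 3 in turn it was 11 of 29258, 4 of 29205 and 233 of 29200. Between 29266 and 29398 transcripts were tested for days 1 and 3, and 1 to 7 and 2 to 19 were called higher. Between days 3 and 1 they ranged from 0 to 1 (1 without day 1 replicate 2), between days 14 and 1 from 1 to 8, and between days 14 and 3 from 0 to 1.

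With a replicate block, edgeR called 0, 1 and 1 of the 159 higher at days 1, 3 and 14 than in control. Over all 28016 transcripts it called 0, 3 and 21 higher. Between days it called 0 of the 159. In the comparisons with 0, an unadjusted p under 0.05 was reached by 64 (day 1 against control), 29 (days 3 and 1), 36 (days 14 and 1) and 36 (days 14 and 3). The replicate numbers were not used as pairs in the reported fit, and the design is not settled by the values. Of 18 pairs with the same number, 3 had a correlation of deviations over 0.1, with a median of -0.0144. The highest was 0.226, for replicate 3 of control and of day 1. A pair with different numbers, day 1 replicate 2 and day 14 replicate 3, reached 0.155.

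Of 121 alternative values for numbers of gained or called transcripts, 48 stayed within 1.5 times and 73 did not. Counts have no direction to reverse, but directions of called transcripts turned between days 14 and 3. They went from 0 higher and 2 lower to 16 and 9 with DESeq2 and 1 and 0 without day 3 replicate 2. Of 429 values of named or called transcripts under the alternatives, 302 kept their side of the thresholds, 127 did not, and 0 changed direction past them. Depth limits what absence means, as 3 counts in a control library are 0.113 to 0.132 CPM. With 3 libraries per group, recurrence of these gains in further animals was examined only through the libraries left out. No deposited value for the uncertainty of dividing reads among transcripts was used.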
